A study of Mus musculus with 6 samples.

Results

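H/ACA box snoRNAs are small nucleolar RNAs that take their name from 2 short sequence boxes. They were read here in an eCLIP experiment on mouse Gtsf1 (Asterix), a zinc-finger protein known from silencing by piRNAs. The features were chosen by name, as every entry of the deposited snoRNA class that begins with Snora. This gave 41 features of 838 in the class and of 1753368 annotated features with a read in any library. Membership rests on the name alone, and H/ACA RNAs that carry other names in the class are not among the 41. All 41 had a mean of at least 1 RPM (reads per 1000000 reads of the library) over the 4 crosslinked libraries, so none was set aside for low values. The lowest were Snora47, with a mean of 2.21 RPM, and Snora43-2, with 2.36 RPM, and no member lay under the minimum.

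Most H/ACA snoRNAs guide the conversion of uridine to pseudouridine in ribosomal RNA. Each folds into hairpins that pair with the target and is held by dyskerin (Dkc1), which is the pseudouridine synthase, together with Nop10, Nhp2 and Gar1. In mammals nearly all are cut out of introns, often of genes for ribosomal proteins and translation factors or of non-coding host genes named Snhg, and they reside in the nucleolus. The U17 RNAs, Snora73a and Snora73b, act in the cleavage of the rRNA precursor and not in its modification. Box C/D snoRNAs guide methylation of ribose instead and are bound by other proteins, while scaRNAs are related guides of Cajal bodies.

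All 6 libraries came from P19 cells, a mouse embryonal carcinoma line, taken 48 hours after transient transfection with Gtsf1 that carried a C-terminal TEV-Strep tag and was driven by the EF-1alpha promoter of pEF. The expressed protein is therefore shared by every group, and no group without it is used here. The groups were crosslinked input (n = 2), crosslinked pull-down on MagStrep XT beads (n = 2), non-crosslinked input (n = 1) and non-crosslinked pull-down (n = 1), where crosslinked cells received ultraviolet light at 254 nm and 400 mJ. The labels do not say whether replicates came from separate cultures, so p-values measure the spread between these libraries, which may be technical.

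The libraries held 13168593 to 18418166 reads, so that 1 read was worth 0.0543 to 0.0759 RPM. Every member had at least 6 reads in every library. The labels were checked on pre-mRNA reads of Gtsf1, at 46.9 and 46.3 RPM in the crosslinked inputs, 102.0 and 210.3 RPM in their pull-downs, and 49.2 and 40.6 RPM in the input and pull-down without crosslinking. The gene was thus higher in the crosslinked pull-downs only, and the check does not bear out the label of the non-crosslinked pull-down. Exons of 7 P19 marker genes, led by Pou5f1, summed to between 42.2 and 79.7 RPM in a library, and Dppa4 was at 0 in 5 of the 6. Exons of 7 markers of other lineages summed to between 0.283 and 0.948 RPM in the inputs and between 3.04 and 4.96 RPM in the pull-downs, with Gata6 the highest of them except in the non-crosslinked input, where Pax6 was, and Alb at 0 in all 6. The part of this difference in the results on snoRNAs was not tested.

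As a family, H/ACA snoRNAs were less abundant in every pull-down than in every input. Their reads summed to 4424 and 4957 RPM in the crosslinked inputs and 3494 RPM in the non-crosslinked input. Their sums reached 926 and 1680 RPM after pull-down from crosslinked cells and 744 RPM after pull-down from non-crosslinked cells, so the groups did not overlap. With crosslinking the input mean was 4691 ± 377 RPM and the pull-down mean 1303 ± 533 RPM (SD, n = 2 each), which is 3.60-fold lower. Without crosslinking the pull-down was 4.70-fold lower than its input. RPM gives shares of a library and not amounts, and the level in an input is that of bulk cells, in which the number of cells with an RNA and the copies per cell cannot be told apart.

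As a share of all reads, the family made up 0.442% (95% Wilson interval 0.439 to 0.446%) and 0.496% (0.493 to 0.499%) of the crosslinked inputs. It made up 0.0926% (0.0911 to 0.0941%) and 0.168% (0.166 to 0.1700%) of the crosslinked pull-downs. The shares were 0.349% (0.346 to 0.352%) in the non-crosslinked input and 0.0744% (0.0729 to 0.0758%) in its pull-down. These intervals treat each read as independent, which PCR copies of a molecule are not, so they may be too narrow even for counting error. The gap between the 2 crosslinked pull-downs was far wider.

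Related families were summed in the same way. Snord sums were higher in the pull-downs, and scaRNA sums were lower, by less than those of H/ACA snoRNAs. Snord features are the box C/D snoRNAs taken by that name. They summed to 2021 and 1929 RPM in the crosslinked inputs and 2606 and 3926 RPM in the crosslinked pull-downs. Their ratio was 1.65 with crosslinking and 1.32 without it. The scaRNA class had 154 and 162 RPM in the crosslinked inputs and 94.2 and 128 RPM in the pull-downs, with a ratio of 0.705 with crosslinking and 0.707 without. The summed H/ACA level over the summed Snord level was 2.189 and 2.57 in crosslinked inputs and 0.355 and 0.428 in their pull-downs. It was 1.76 in the non-crosslinked input and 0.285 in its pull-down. All inputs thus held more H/ACA than Snord reads, and all pull-downs fewer. U3, a box C/D snoRNA named Rnu3 here, is not in the Snord sums. It had 3601 and 5258 RPM in the crosslinked inputs and 4241 and 3970 RPM in their pull-downs. Its ratio was 0.927 with crosslinking and 0.626 without, from 5803 to 3633 RPM. The order of H/ACA and C/D reads is therefore given for Snord features alone. These sums were not tested.

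**Figure D1:**
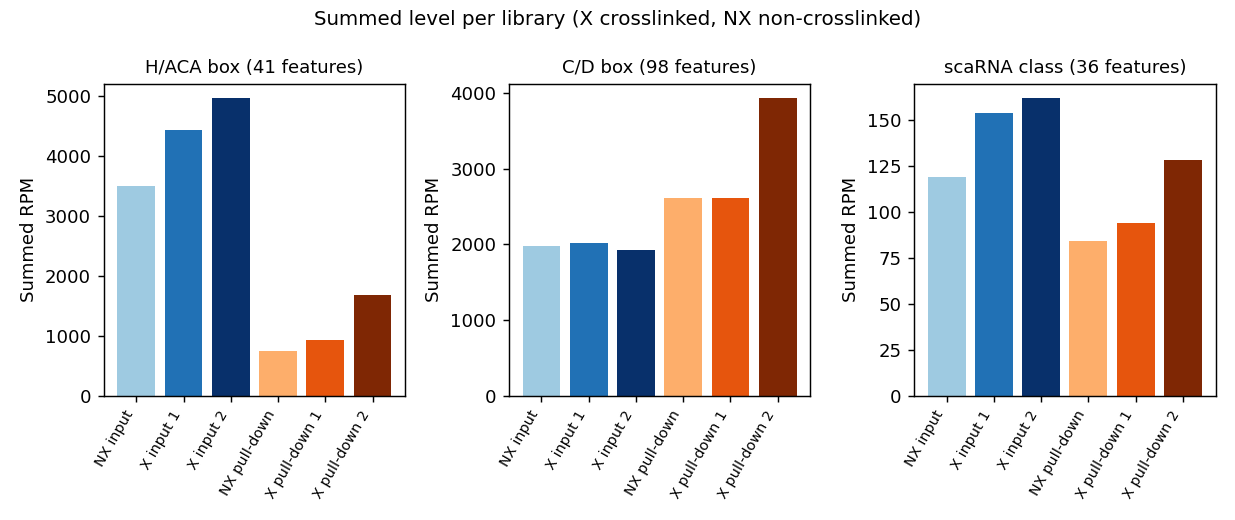
Bars give the summed RPM of H/ACA, C/D (Snord names only) and scaRNA features in each of the 6 libraries. X is crosslinked and NX non-crosslinked, and each panel has its own axis from 0. The H/ACA sums of the 3 pull-downs (744, 926 and 1680 RPM) lie below those of the 3 inputs (3494 to 4957 RPM). The Snord sums of the pull-downs lie above those of the inputs.

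Single members of the 2 crosslinked pull-downs were tested against the 2 crosslinked inputs in a fit over all 39872 features that met the minimum of 1 RPM. edgeR's quasi-likelihood test called 31 of the 41 members lower in the pull-down at an adjusted p under 0.05, against 3.50% of all tested features. No member was called higher, against 6.44% of all tested features, and none was higher at an unadjusted p under 0.05, where 35 were lower, against 8.42% of all tested features higher and 14.4% lower at that p. The median edgeR log2 ratio of the members was -2.07, and that of all tested features was -0.21. In 38 members both pull-downs lay below both inputs, as they did in 57.7% of all tested features, and 21 members were both called and at least 4-fold lower in the mean, against 0.314% of all tested features. For comparison, edgeR called 27 of 94 tested Snord features higher and 0 lower, and 1 of 17 tested scaRNA features higher and 7 lower. The H/ACA members were 31 of the 77 features called lower in the whole snoRNA class.

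**Figure D2:**
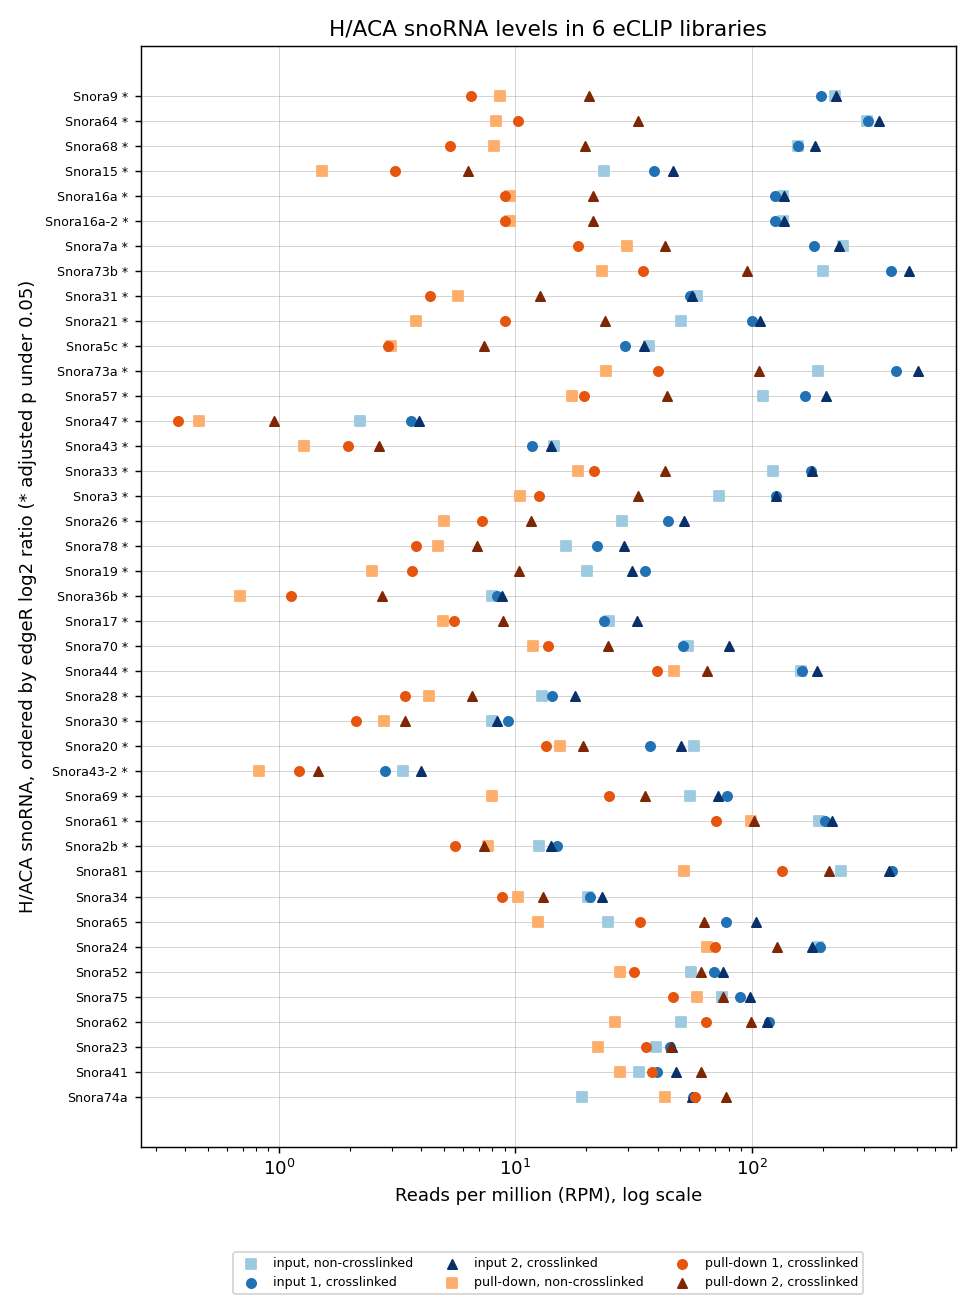
Each row is 1 of the 41 H/ACA snoRNAs, and the points give its RPM on a log axis in the 6 libraries, with inputs in blue and pull-downs in orange and brown. The order follows the edgeR log2 ratio, from Snora9 (-3.87) to Snora74a (0.36). Stars mark the 31 members with an adjusted p under 0.05, and in all but the last 3 rows both crosslinked pull-downs lie to the left of both crosslinked inputs.

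The U17 RNAs had the highest mean levels of all members in the crosslinked inputs, although Snora81 was slightly above Snora73b in input 1. Snora73a (chr4:132352775-132352979, GRCm38, 205 bases, inside Snhg3) had 408 and 509 RPM in the crosslinked inputs, 40.0 and 107 RPM in their pull-downs, and 191 and 24.2 RPM in the non-crosslinked pair. It fell 6.22-fold with crosslinking (edgeR log2 ratio -2.54, SE 0.47, adjusted p 0.0211) and was 7.90-fold lower without it. Snora73b (chr4:132352322-132352526, 205 bases, also inside Snhg3) had 389 and 464 RPM in the crosslinked inputs and 34.6 and 95.8 RPM in the pull-downs, and 199.8 and 23.3 RPM without crosslinking (edgeR log2 ratio -2.61, SE 0.48, adjusted p 0.0203). The deposited counts of the 2 copies are fractional in all 6 libraries, so reads were split and neither is certain as a single gene. Summed, the copies had 885 ± 124 RPM in the crosslinked inputs and 139 ± 90.8 RPM in their pull-downs (SD, n = 2 each), 6.37-fold lower. Without pull-down 2, the edgeR log2 ratio was -3.44 for Snora73a and -3.55 for Snora73b. The copies held 18.9% of the family's reads in the crosslinked inputs, and without them the family was 3.27-fold lower in the pull-down.

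The 3 lowest ratios were those of Snora9, Snora64 and Snora68. Snora9, for which the RefSeq table used here gave no entry, had 196 and 228 RPM in the crosslinked inputs, 6.49 and 20.5 RPM in the pull-downs, and 226 and 8.57 RPM in the non-crosslinked pair. It was 15.7-fold lower with crosslinking (edgeR log2 ratio -3.87, SE 0.54, adjusted p 0.00628) and 26.3-fold lower without it. Snora64, a guide of rRNA also known as U64 (chr17:24720789-24720905, inside Rps2), had 312 and 347 RPM in the crosslinked inputs and 10.3 and 32.9 RPM in the pull-downs. In the non-crosslinked pair it had 308 RPM in the input and 8.28 RPM in the pull-down. This made it 15.2-fold lower with crosslinking (edgeR log2 ratio -3.83, SE 0.55, adjusted p 0.00715) and 37.2-fold lower without, the largest fall of any member in the non-crosslinked libraries. Snora68, or U68, had 157 and 186 RPM in the crosslinked inputs, 5.30 and 19.8 RPM in the pull-downs, and 157 and 8.09 RPM without crosslinking (edgeR log2 ratio -3.68, SE 0.59, adjusted p 0.0118). In all 3 RNAs the pull-down with the higher level was pull-down 2, and it still lay far below both inputs. The edgeR log2 ratio of Snora9 was -4.95 without pull-down 2 and -3.26 without pull-down 1, that of Snora64 was -4.92 and -3.22, and that of Snora68 was -4.93 and -3.01.

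Snora15 (chr5:129794561-129794676), inside Cct6a, a subunit gene of the chaperonin TRiC, was less abundant, with 38.5 and 46.5 RPM in the crosslinked inputs, 3.10 and 6.32 RPM in the pull-downs, and 23.8 and 1.52 RPM without crosslinking. It was 9.02-fold lower in the crosslinked pull-downs (edgeR log2 ratio -3.08, SE 0.34, adjusted p 0.00233). Snora16a (chr4:132309465-132309600, inside Snhg12) had 125 and 137 RPM in the crosslinked inputs and 9.03 and 21.3 RPM in the pull-downs (edgeR log2 ratio -3.02, SE 0.41, adjusted p 0.00570). The feature Snora16a-2 had the same values at this precision and shares these reads, so the pair stands for 1 measurement. Snora7a (chr6:115807975-115808103, inside Rpl32) had 184 and 234 RPM in the crosslinked inputs, 18.4 and 43.1 RPM in the pull-downs, and 244 and 29.6 RPM without crosslinking (edgeR log2 ratio -2.67, SE 0.42, adjusted p 0.0112). It held 6.99% of the family's reads in the non-crosslinked input, next to Snora64 with 8.82%. Without pull-down 2 the edgeR log2 ratio was -3.70 for Snora15, -3.78 for Snora16a and -3.43 for Snora7a.

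The other called members had crosslinked ratios from 0.154 for Snora31 (inside Tpt1) to 0.443 for Snora2b (inside Kansl2). They included further rRNA guides of ribosomal protein genes, such as Snora3 in Rpl27a (ratio 0.180), Snora33 in Rps12 (0.180) and Snora70 in Rpl10 (0.293), and members of genes with other roles, such as Snora5c in Tbrg4 (0.159) and Snora28 in Eif5 (0.310). The calls of Snora2b, Snora28 and Snora70 were lost with TMM factors. Of the 2 members nearest the minimum, Snora47 had 3.61 and 3.91 RPM in the crosslinked inputs, 0.372 and 0.948 RPM in the pull-downs, and 2.191 and 0.456 RPM without crosslinking (edgeR log2 ratio -2.41, SE 0.31, adjusted p 0.00456). Snora43-2 had 2.80 and 3.99 RPM in the crosslinked inputs and 1.21 and 1.45 RPM in the pull-downs (edgeR log2 ratio -1.25, SE 0.25, adjusted p 0.0293). Without pull-down 2 the edgeR log2 ratio of Snora47 was -3.24. The call of Snora43-2 was lost with TMM factors, with DESeq2, without rRNA, without the filter and without pull-down 1.

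A further abundant member, Snora81 (chr16:23110770-23110933), lies inside Eif4a2, the gene of an RNA helicase of translation initiation, and stood closer to its inputs. It had 394 and 383 RPM in the crosslinked inputs, 135 and 213 RPM in the pull-downs, and 239 and 51.7 RPM in the non-crosslinked input and pull-down. It was 2.24-fold lower with crosslinking and 4.63-fold lower without, and edgeR did not call it (log2 ratio -1.07, SE 0.26, adjusted p 0.0576), though it was called in 5 of 14 alternatives, that without pull-down 2 among them. It became the most abundant member of the crosslinked pull-downs, with 13.3% of the family's reads against 8.28% in the inputs. Snora61 (chr4:132310307-132310368, inside Snhg12) had 204 and 219 RPM in the crosslinked inputs, 70.8 and 102 RPM in the pull-downs, and 192 and 99.1 RPM without crosslinking, and fell 2.44-fold (edgeR log2 ratio -1.20, SE 0.24, adjusted p 0.0280). Its call was lost in 5 of 14 alternatives, that without pull-down 1 among them (log2 ratio -0.94). Snora24 (chr3:123507937-123508066, inside Snhg8) had 195 and 180.0 RPM in the crosslinked inputs and 70.2 and 128 RPM in the pull-downs, and was not called (edgeR log2 ratio -0.83, SE 0.31, adjusted p 0.175), except without pull-down 2 (log2 ratio -1.34).

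The 10 members that were not called were Snora81, Snora34, Snora65, Snora24, Snora52, Snora75, Snora62, Snora23, Snora41 and Snora74a, and those described next were picked after their values were seen. In 3 of them the pull-downs did not lie below the inputs. Snora74a, also known as U19, a guide of rRNA inside Snhg4, was the only member whose crosslinked pull-downs both lay above both inputs, and the only one above its input in the pull-down without crosslinking. It had 56.2 RPM in each crosslinked input and 57.3 and 78.3 RPM in the pull-downs from crosslinked cells, with 19.2 and 42.9 RPM in the non-crosslinked pair. Of all tested features, 10.8% had both crosslinked pull-downs above both inputs. The ratio was 1.21 with crosslinking (edgeR log2 ratio 0.36, SE 0.21, adjusted p 0.378) and 2.24 without. Snora41 (chr1:63179023-63179135, inside Eef1b2, a translation elongation factor gene) had 39.9 and 47.99 RPM in the crosslinked inputs, 37.8 and 61.3 RPM in the pull-downs, and 33.2 and 27.7 RPM without crosslinking. Its pull-downs fell on either side of the inputs (edgeR log2 ratio 0.27, SE 0.27, adjusted p 0.609). Snora23 (chr7:110046364-110046547, inside Ipo7, an importin gene) had 45.0 and 45.9 RPM in the crosslinked inputs and 35.6 and 45.7 RPM in the pull-downs, with 39.4 and 22.3 RPM without crosslinking. Its edgeR log2 ratio was -0.07 (SE 0.19, adjusted p 0.864). A p above the threshold does not show that these levels were equal.

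Other uncalled members lay between these and the rest. Snora62, or E2 (chr9:120130434-120130563, inside Rpsa), had 118 and 116 RPM in the crosslinked inputs, 64.3 and 99.1 RPM in the pull-downs, and 50.2 and 26.4 RPM without crosslinking. Snora65 (chr2:32963301-32963418, inside Rpl12) had 77.9 and 105 RPM in the crosslinked inputs, 33.7 and 62.9 RPM in the pull-downs, and 24.7 and 12.4 RPM without crosslinking. For both, the pull-downs lay below the inputs, and the adjusted p of edgeR was 0.378 and 0.212. Snora75 (inside Ncl, the gene of nucleolin) and Snora52 (inside Rplp2) had crosslinked ratios of 0.650 and 0.643. Over the alternatives tried, Snora23, Snora41, Snora62, Snora74a and Snora75 were never called.

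Most members called lower with crosslinking were also low without it. Of the 41, 40 had fewer RPM in the non-crosslinked pull-down than the matching input, against 84.3% of all tested features, and 31 were lower by at least 2-fold, against 44.4% of all tested features. Of the 31 members called lower, 29 were at least 2-fold lower without crosslinking, and the other two were Snora61 and Snora2b, at ratios of 0.516 and 0.609. The median ratio of pull-down over input was 0.223 with crosslinking, beside 0.812 for all tested features, and 0.198 without, beside 0.530. Across the 41 members, which share libraries and depth, the log2 ratios with and without crosslinking had a Pearson correlation of 0.932 and a Spearman correlation of 0.924. In log2(RPM + 1), a scale that shrinks changes of low features, 10 members had ratios above the non-crosslinked one for either crosslinked pull-down over either crosslinked input, against 57.6% of all tested features. Among these were Snora69 (chrX:37082912-37083033, inside Rpl39), with ratios of 0.398 with and 0.145 without crosslinking, and Snora81, with 0.447 and 0.216. All tested features were filtered on the crosslinked libraries and not on the non-crosslinked pair. Their shares and medians are therefore not a neutral reference where the non-crosslinked ratio enters. The non-crosslinked pair has no replicates, and these differences were not tested.

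**Figure D3:**
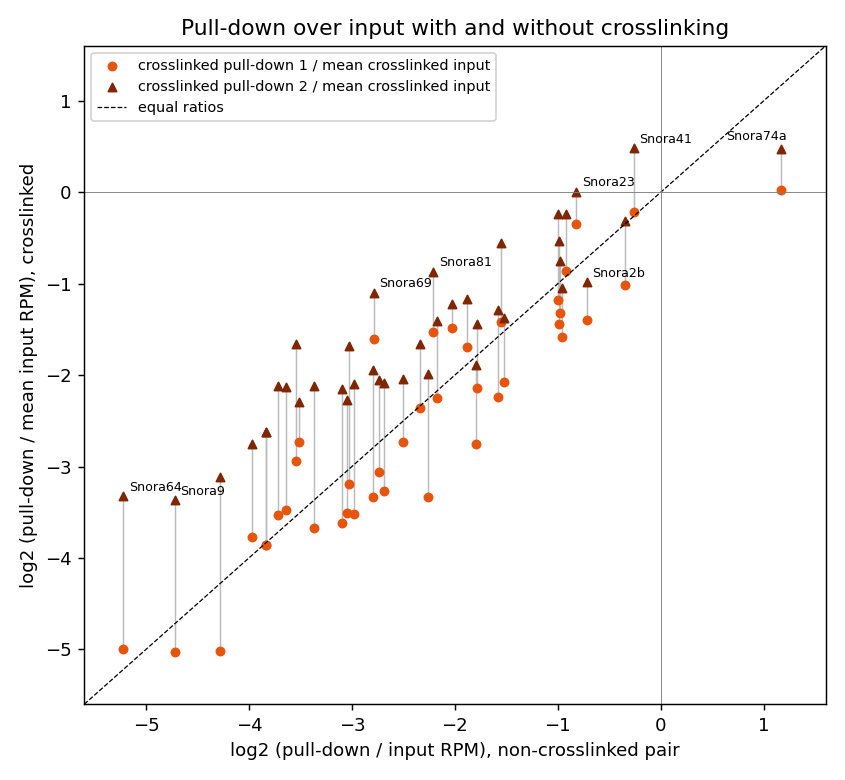
Each H/ACA snoRNA is drawn at the log2 ratio of pull-down over input in the non-crosslinked pair (x axis) and of each crosslinked pull-down over the mean crosslinked input (y axis), with a grey line that joins the 2 pull-downs. Points rise along the dashed line of equal ratios, pull-down 2 lies above pull-down 1 for all 41 members, and Snora74a stands alone with ratios above 0 on both axes.

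The 2 crosslinked pull-downs differed in one direction for the whole family. Pull-down 2 exceeded pull-down 1 in all 41 members, against 36.6% of all tested features. The ratio of pull-down 2 to pull-down 1 ranged from 1.20 for Snora43-2 to 3.73 for Snora68, with a median of 1.87. The family sum was 1.82-fold higher in pull-down 2, against 1.51-fold for Snord and 1.36-fold for scaRNA features. Without pull-down 2, edgeR called 36 members lower with a median log2 ratio of -2.63, and without pull-down 1 it called 27 with a median of -1.56. Each of these fits has 1 pull-down, so the spread comes from the 2 inputs alone and the lone library is assumed to vary like them. All but Snora23, Snora41 and Snora74a were below both inputs in each pull-down, and the size of the fall depended on the library.

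Crosslinked and non-crosslinked libraries were then set side by side, with 1 non-crosslinked library in each arm and no test. The family sum of the crosslinked inputs was 1.34 times that of the non-crosslinked input, and that of the crosslinked pull-downs was 1.75 times that of the non-crosslinked pull-down. Over single features the median ratio was 1.22 for the members and 1.78 for all tested features in the inputs, and 1.62 and 2.78 in the pull-downs, so the members lay below the typical tested feature in both. Both crosslinked inputs lay above the non-crosslinked one in 29 members, against 86.5% of all tested features. In 4 members, Snora62, Snora65, Snora73a and Snora74a, both crosslinked inputs were at least 2-fold above the non-crosslinked input, against 21.9% of all tested features. Snora65 had the highest ratio of the inputs, 3.70, and its ratio of the pull-downs was 3.88. In 5 members (Snora20, Snora31, Snora43, Snora5c and Snora7a) both crosslinked inputs were below the non-crosslinked one, against 4.82% of all tested features. Both crosslinked pull-downs lay above the non-crosslinked one in 24 members, against 86.6% of all tested features, and below it in 1, Snora2b, against 7.30%. Among the pull-downs, 6 members were at least 2-fold higher in both crosslinked libraries, against 64.1% of all tested features: Snora15, Snora21, Snora62, Snora65, Snora69 and Snora81. Snora21 (chr11:97781639-97781766, inside Rpl23) had the largest such ratio, 4.35, from 3.797 RPM in the non-crosslinked pull-down to 9.03 and 24.01 RPM in the crosslinked ones. Even so, these lay below its crosslinked inputs of 100.0 and 109 RPM. The tested features were filtered on the crosslinked libraries, which favours features that are higher there, so the shares over all tested features are not a neutral reference for this comparison.

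**Figure D4:**
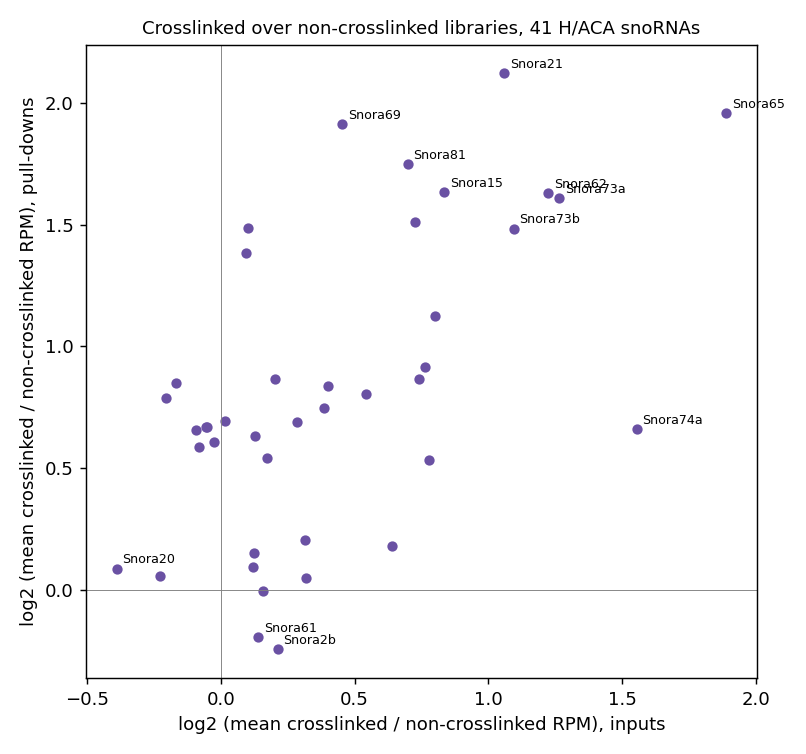
Each point is 1 of the 41 H/ACA snoRNAs, at the log2 ratio of mean crosslinked over non-crosslinked RPM in the inputs (x axis) and in the pull-downs (y axis). Snora65 is high on both axes (ratios of 3.70 and 3.88), Snora21 and Snora69 are high in the pull-downs (4.35 and 3.77), and Snora2b and Snora61 lie lowest there (0.844 and 0.874).

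Of the 41 names, 38 matched a gene in the RefSeq table (GRCm38.p6), and each of these lay within the span of another gene. The strand is not in that table, so a span that holds an RNA need not be its host. Annotated lengths ran from 56 to 205 bases with a median of 121.5, and length had little relation to the edgeR log2 ratio (Pearson 0.115, Spearman 0.0654, over 38 members), nor had the input level (Pearson -0.218, Spearman -0.263, over 41 members). By kind of surrounding gene, 9 of 12 members in ribosomal protein genes were called lower, with a median ratio of 0.195. These 12 include Snora78, which also lies within the span of Snhg9. In non-coding hosts (Snhg genes and Dancr) 8 of 10 were called lower, with a median of 0.226, in translation factor genes 2 of 4, with a median of 0.379, and in other genes 9 of 12, with a median of 0.268. Each kind spanned a wide range, from 0.0656 to 0.697 within ribosomal protein genes and from 0.116 to 1.21 within non-coding hosts.

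Members within the span of the same gene also differed. Snhg12 holds Snora16a, Snora44 and Snora61, whose crosslinked ratios were 0.116, 0.297 and 0.409, and whose non-crosslinked ratios were 0.0700, 0.291 and 0.516, so the order was the same. The span of Rps2 holds Snora64, with crosslinked and non-crosslinked ratios of 0.0656 and 0.0268, and Snora78, with 0.210 and 0.288. Snora78 also lies within the span of Snhg9, so these RNAs need not come from the same gene. In Kansl2, Snora2b and Snora34 were close to each other, at 0.443 and 0.498 with crosslinking and 0.609 and 0.507 without.

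The introns around the members were compared with them, as reads of the intron class summed over the gene. Whether reads over a snoRNA could also count toward its intron is not stated. In 18 genes with a mean of at least 1 RPM of intron reads, the median ratio of crosslinked pull-down over input was 0.850 for the introns and 0.345 for the members they hold. Members had the lower ratio in 16 of the 18. Introns of Rpl32 had 4.67 RPM in the inputs and 4.66 RPM in the pull-downs, a ratio of 0.998, beside 0.147 for Snora7a. Introns of Tcp1, a chaperonin gene, had the highest ratio, 1.40, beside 0.378 for Snora20 in the same gene. The exceptions were Eef1b2, with 1.07 for the introns and 1.13 for Snora41, and Eif4a2, with 0.341 and 0.447 for Snora81. Introns of Rpl23 had the lowest ratio, 0.199, from 67.4 to 13.4 RPM, beside 0.158 for Snora21. Without crosslinking the median intron ratio was 0.651. Introns of Eef1b2 (1.23, beside 0.834 for Snora41) and Eif4a2 (0.453, beside 0.216 for Snora81) then had the higher ratio. Those of Kansl2 (0.444, beside 0.609 for Snora2b and 0.507 for Snora34) and Rplp2 (0.368, beside 0.502 for Snora52) then had the lower. These ratios were not tested.

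**Figure D5:**
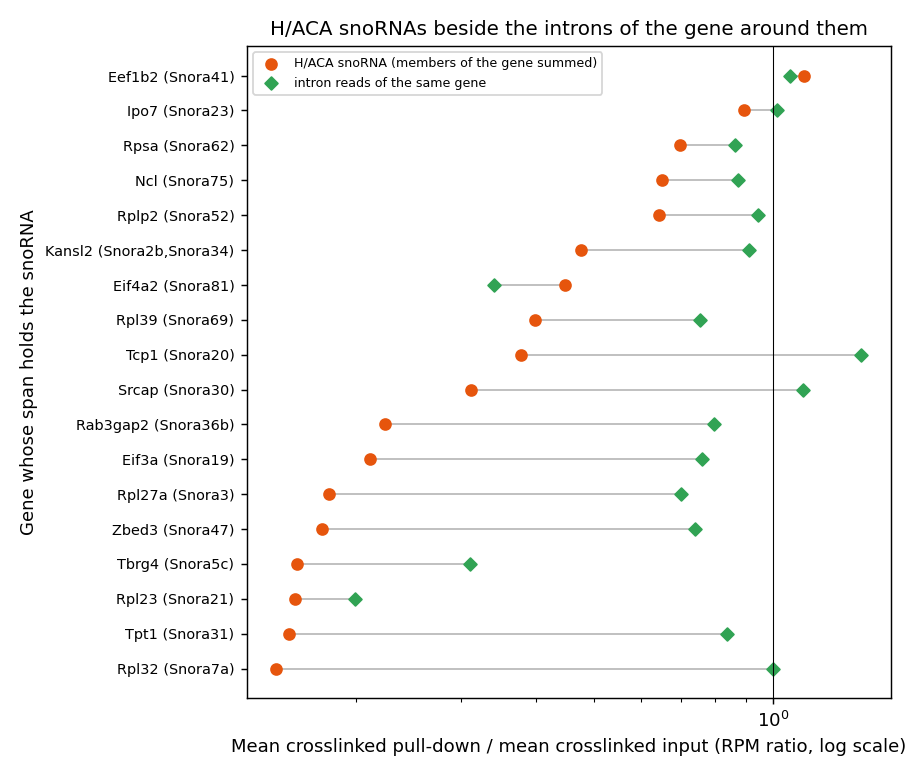
For the 18 genes with a mean of at least 1 RPM of intron reads, orange points give the ratio of mean crosslinked pull-down over mean crosslinked input for the H/ACA snoRNAs within the gene, and green diamonds the same for the gene's intron reads, on a log axis. The diamond lies to the right of the point in 16 genes, and to its left in Eef1b2 and Eif4a2.

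Other parts of the H/ACA machinery were read from the same libraries. Terc, the telomerase RNA, which ends in an H/ACA domain but belongs to another class of the files, moved the other way. It had 4.18 and 4.78 RPM in the crosslinked inputs and 6.95 and 7.01 RPM in their pull-downs, and was called higher (edgeR log2 ratio 0.73, SE 0.16, adjusted p 0.0369). Its ratio was 1.56 with crosslinking and 1.65 without, from 3.04 to 5.01 RPM. Genes of H/ACA proteins (Dkc1, Nop10, Nhp2 and Gar1), of factors in their assembly or transport (Naf1, Shq1 and Nolc1) and of enzymes that act on RNA 3′ ends (Parn, a poly(A) nuclease, and Tent4b, a poly(A) polymerase) were low as pre-mRNA features. Of these 9, 3 reached the minimum of 1 RPM, and none was called. These were Dkc1, with 2.63 and 2.88 RPM in the inputs and 2.11 and 0.885 RPM in the pull-downs, and 1.91 and 2.35 RPM in the non-crosslinked input and pull-down (adjusted p of edgeR 0.225), Nolc1 (0.559) and Tent4b (0.283).

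The authors' deposited table, which gives an enrichment ratio per feature without its formula, lists all 41 members with a median of 0.323, against 1.37 over its 216085 features. Above 1 in the authors' deposited table are 2 members, Snora41 at 1.67 and Snora23 at 1.39, and Snora9 is lowest at 0.101. Snora74a has 0.299 in the authors' deposited table, below most members, whereas its RPM in the crosslinked pull-downs was above that of the inputs. Snord features there have a median of 1.69, with 59 of 85 above 1 in the authors' deposited table, where 161247 of all 216085 features are above 1, a larger share than among Snord or H/ACA features.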

How the data were processed

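Per the submitters' processing notes, the tools included bcl2fastq 2.19, STAR 2.5.2b and bedtools 2.29.0, and the build was mm10; neither the annotation's source nor whether PCR duplicates were removed is given in the sources used here. For each library the authors deposited expected counts per annotated feature, in which some reads were split into fractions. The authors' deposited RPM values are these counts per 1000000 reads of the library, unannotated reads (6.99% to 14.4%) included. The authors' deposited ratio table was used as given.

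Counts were rounded, 39872 features were kept whose RPM averaged 1 or more in the 4 crosslinked libraries, and 2 pull-downs were tested against 2 inputs with edgeR 4.0.16 (quasi-likelihood, library size = annotated reads, no further factors) in R 4.3.3, with Benjamini-Hochberg adjustment over all features. Unannotated reads stayed out of the tests. The SE beside an edgeR log2 ratio is the absolute ratio over the square root of the F statistic of its test. On simulated counts for this comparison, 173 of 200 features of 39872 changed by 2 on the log2 scale were recovered, with 4 false calls. The simulation had a fixed dispersion, changed only features above a minimum of expected reads, and had no shift shared by many features of a library. It therefore does not give the error rate of the real comparison. Alternatives used TMM, DESeq2 1.42.0, limma 3.58.1, other filters, library sizes and pseudocounts, a replicate block and libraries left out in turn. Named members were the 8 called with the largest absolute log2 ratio in each direction, the 8 highest in the crosslinked inputs, both U17 copies and those nearest 1 RPM. The members and lists were chosen with earlier results of these data known. Positions are RefSeq's (GRCm38.p6, the assembly of mm10). Sequences of the members are not shown. The gene around 1 member is not reported here. The comparison with introns leaves it out, as well as Snora57 and Snora78, which lie within 2 overlapping genes each, and genes under 1 RPM of intron reads.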

Additional observations from a re-analysis of the deposited data

Results flagged for a closer look

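In 2 members, crosslinked and non-crosslinked libraries stood in opposite orders in inputs and pull-downs, in both crosslinked libraries of each arm. This is 4.88% of the members, and 4.51% of all tested features show such an opposite order. Snora2b had a ratio of mean crosslinked over non-crosslinked RPM of 1.16 in the inputs and 0.844 in the pull-downs. Snora43 had 0.890 in the inputs and 1.80 in the pull-downs. The difference was not tested. Each arm has 1 non-crosslinked library.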

How the results depend on the processing

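The direction of the family and the absence of higher calls held under every alternative run. The count of members called lower was 23 with TMM factors, 26 with DESeq2, 27 without rRNA or with a minimum of 5 RPM, 33 with unannotated reads in the library sizes or with limma, 31 with all 6 libraries in 1 fit, and 28 of 38 with copies that share reads summed, a choice made after the data were seen. Without a filter on low values 0 were called among 942743 features, with 33 lower at an unadjusted p under 0.05. Leaving out each library gave 27 to 36 lower calls, a median log2 ratio of -2.63 to -1.56, and a ratio of summed RPM of 0.197 to 0.358 around 0.278. Those fits have 1 library in an arm, so the spread is that of the other group. The replicate numbers pair nothing in the labels (correlation of deviations 0.111), and the replicate block gave 31 lower calls. The median on the log2(RPM + pseudocount) scale went from -1.77 to -2.23 with 0.1 RPM in the crosslinked libraries, and from -2.19 to -1.68 with 5 RPM in the non-crosslinked ones. TMM factors moved the median of all tested features from -0.21 to -0.01, with 2739 features called higher and 632 lower in place of 2566 and 1394, and DESeq2 called 2516 and 239. In 23 of the 31 members called lower, the call held in each of the 14 alternatives run member by member but the absent filter (the sum over copies was counted for the family alone), except that Snora47 was below the minimum of 5 RPM and not tested there. The other 8 lost it with TMM factors. Of these, Snora20, Snora61 and Snora43-2 also lost it with DESeq2, without rRNA and without pull-down 1, Snora70 without rRNA, without pull-down 1 and with a minimum of 5 RPM, Snora2b and Snora69 with DESeq2, and Snora19 with a minimum of 5 RPM and the replicate block. The cause was not tested. Depth limits the lowest members most, since Snora47 rests on 6 reads in pull-down 1.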
